A study of Mus musculus with 8 samples.

Results

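The respiratory chain genes described here are the nuclear genes for subunits of complexes I to V, cytochrome c and a few assembly factors and tissue-restricted isoforms. They were taken by name from the rows of the deposited count tables: every name starting with Nduf, Uqcr, Atp5, Cox4i, Cox5, Cox6, Cox7 or Cox8, plus Sdha, Sdhb, Sdhc, Sdhd and Cycs. The rule gave 92 of 20340 genes, and it used no measured value. Complex I has 36 of them and its Ndufaf assembly factors 8, complex II has 4, complex III 8, cytochrome c 1, complex IV 19 and ATP synthase (complex V) 16. Single cells came from the brains of C57BL/6J mice, all male and 8 to 9 weeks old, after a 60 min occlusion of the middle cerebral artery followed by reperfusion. There were 8 libraries, 1 for each combination of genotype label (WT or Prdx1-/-, the latter lacking the peroxide-reducing enzyme peroxiredoxin 1), hemisphere (ipsilateral, on the side of the occluded artery, or contralateral) and reperfusion time (24 h or 48 h). All 8 libraries share the occlusion, so the contralateral hemisphere is the uninjured side of an operated animal and not a sham control. The labels do not say how many animals each library holds or how the Prdx1-/- mice were made.

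Respiratory chain complexes pass electrons from NADH (complex I) and succinate (complex II) through ubiquinone, complex III and cytochrome c to complex IV, which reduces oxygen. Complexes I, III and IV pump protons out of the mitochondrial matrix, and ATP synthase lets them back in to make ATP. Most of the subunits are encoded in the nucleus and are joined in the inner membrane to a small core encoded in mitochondrial DNA, so that both genomes supply complexes I, III, IV and V, while complex II is wholly nuclear. Mature neutrophils rely largely on glycolysis and hold few mitochondria with a functional chain, whereas microglia and macrophages use both oxidative phosphorylation and glycolysis and shift between them on activation. Many promoters of these genes hold sites for the transcription factors NRF1, GABPA (also called NRF2) and YY1.

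The RefSeq tables (build GRCm38.p6) matched 91 of the 92 genes, 89 by their symbol and 2 by an older symbol, and 76 had a promoter window of 300 bases, 250 before to 50 after the start. The 5 windows printed here are shown because they belong to the genes whose values the results turn on or stand for each kind of promoter: Cycs and Cox5a, whose difference between hemispheres was seen with and without matching for depth, Uqcr11, whose window holds 2 of the motifs searched, Ndufc1, with the smallest p in complex I between hemispheres, and Cox8b, a muscle isoform with the TATA letters. All run 5′ to 3′ on the gene's strand, and capitals mark the motif letters found. Cycs lies on the minus strand at chr6:50566520-50566819, Cox5a on the plus strand at chr9:57520982-57521281, Uqcr11 on the minus strand at chr10:80406772-80407071, Ndufc1 on the minus strand at chr3:51408906-51409205 and Cox8b on the minus strand at chr7:140900397-140900696.
Cycs: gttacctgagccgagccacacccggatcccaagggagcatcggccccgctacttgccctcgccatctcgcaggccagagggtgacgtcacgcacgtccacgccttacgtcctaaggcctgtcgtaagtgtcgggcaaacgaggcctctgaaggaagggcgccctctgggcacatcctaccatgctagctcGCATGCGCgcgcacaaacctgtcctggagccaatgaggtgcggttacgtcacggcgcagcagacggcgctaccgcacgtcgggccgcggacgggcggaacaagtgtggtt
Cox5a: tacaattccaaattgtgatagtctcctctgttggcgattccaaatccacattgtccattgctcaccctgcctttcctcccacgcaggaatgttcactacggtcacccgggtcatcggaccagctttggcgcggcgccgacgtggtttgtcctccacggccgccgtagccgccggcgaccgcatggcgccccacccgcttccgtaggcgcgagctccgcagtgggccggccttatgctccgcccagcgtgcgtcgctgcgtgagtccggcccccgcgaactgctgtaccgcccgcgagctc
Uqcr11: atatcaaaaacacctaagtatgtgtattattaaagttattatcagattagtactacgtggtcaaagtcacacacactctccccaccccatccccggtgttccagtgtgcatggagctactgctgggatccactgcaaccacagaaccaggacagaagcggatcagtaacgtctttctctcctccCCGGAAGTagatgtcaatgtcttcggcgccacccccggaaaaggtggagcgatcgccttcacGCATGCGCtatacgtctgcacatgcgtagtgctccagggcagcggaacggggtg
Ndufc1: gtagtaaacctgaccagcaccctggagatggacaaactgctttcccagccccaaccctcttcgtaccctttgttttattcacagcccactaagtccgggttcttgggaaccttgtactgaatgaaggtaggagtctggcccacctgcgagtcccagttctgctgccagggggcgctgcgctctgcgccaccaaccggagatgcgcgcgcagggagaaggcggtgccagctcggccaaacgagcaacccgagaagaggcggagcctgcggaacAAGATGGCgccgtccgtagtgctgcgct
Cox8b: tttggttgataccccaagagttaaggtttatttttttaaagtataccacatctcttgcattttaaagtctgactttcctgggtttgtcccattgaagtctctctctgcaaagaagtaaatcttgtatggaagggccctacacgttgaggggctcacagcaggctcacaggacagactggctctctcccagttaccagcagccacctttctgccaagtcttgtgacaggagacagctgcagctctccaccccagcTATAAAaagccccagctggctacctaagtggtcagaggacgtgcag
The capitals in Cycs are the NRF1 letters, those in Uqcr11 are first the GABPA and then the NRF1 letters, those in Ndufc1 are the YY1 letters and those in Cox8b the TATA letters. Cox5a holds none of these letters in this window.

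Each motif was searched on both strands. The NRF1 letters GCGCATGC were in the window of 13 of 76 genes (17.1%), against 3.05% of the 27025 genes with a window. The YY1 letters AAGATGGC were in 11 (14.5%, against 3.19%), and the GABPA letters CCGGAAGT in 5 (6.58%, against 4.31%). The TATA letters TATAAA were in 7 (9.21%), against 15.7% of the 27025 genes. At least 1 of the NRF1, YY1 and GABPA letters was in a window of 28 of the 76 genes (36.8%, against 9.91% of the 27025). A match in these letters is a description of the window and not a measured binding site.

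Cells were assigned to types by a gate on marker genes fixed for each type, none of which is a respiratory chain gene. Of 38025 cells used, 36171 passed a gate, 1854 did not, and 954 (2.51%) lay close to the score cut. The microglia gate held 20905 cells (483 to 4636 per library), the monocyte and macrophage gate 7189 (92 to 2462) and the neutrophil gate 5894 (45 to 1915). Counts are UMIs, that is counted RNA molecules, and levels are given as counts per 1000000 UMIs of the gate in a library (CPM). Libraries held 36581083 to 64393370 UMIs over the cells used. Of the deposited barcodes, 203 of 39742 occurred in 2 or more libraries. All 92 genes had at least 1 UMI, although Cox7b2, an isoform of testis, had none in these 3 gates.

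One label went against the data. In microglia-gated cells the targeted gene Prdx1 stood at 266 and 521 CPM in the WT libraries at 24 h (contralateral, ipsilateral) and at 344 and 669.7 CPM at 48 h. In the libraries labelled Prdx1-/- it stood at 88.9 and 435 CPM at 24 h, but at 6.03 and 6.34 CPM at 48 h. Both 24 h libraries labelled Prdx1-/- thus held Prdx1 RNA, and the genotype label is also compared at 48 h alone where that fit could be made. No combination of labels had a second library. Hemisphere, genotype label and time were therefore fitted together as additive terms, with the libraries of the other labels in the place of replicates, so that p-values measure the spread between these libraries.

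Among the 5 gates with at least 20 cells in 7 or 8 libraries, monocytes and macrophages stood at the top in CPM of respiratory chain RNA. T and NK cells overlapped them, and neutrophils stood at the bottom in CPM. Summed over the 92 genes, the monocyte and macrophage gate held 18928 to 22761 CPM in its 8 libraries, T and NK cells 16636 to 20152 CPM, B cells 13662 to 17656 CPM (7 libraries), microglia 11845 to 16204 CPM and neutrophils 6340.5 to 11763 CPM. In the ipsilateral 24 h library labelled Prdx1-/- T and NK cells (20152 CPM) were level with monocytes (20134 CPM). The ranges of monocytes and microglia did not overlap, nor did those of monocytes and neutrophils, while the highest neutrophil value, 11763 CPM, came just short of the lowest microglial value, 11845 CPM. Within a cell the genes took a median of 1.81 to 2.03% of UMIs in monocytes, 1.10 to 1.34% in microglia and 0.515 to 0.932% in neutrophils. The median number of the 92 genes detected per cell was 69 to 71, 45 to 63 and 19 to 30 in these gates. Median UMIs per cell differed as well, at 14346 to 16173 in monocytes, 7074 to 12418 in microglia and 3473 to 7392 in neutrophils.

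**Figure D1:**
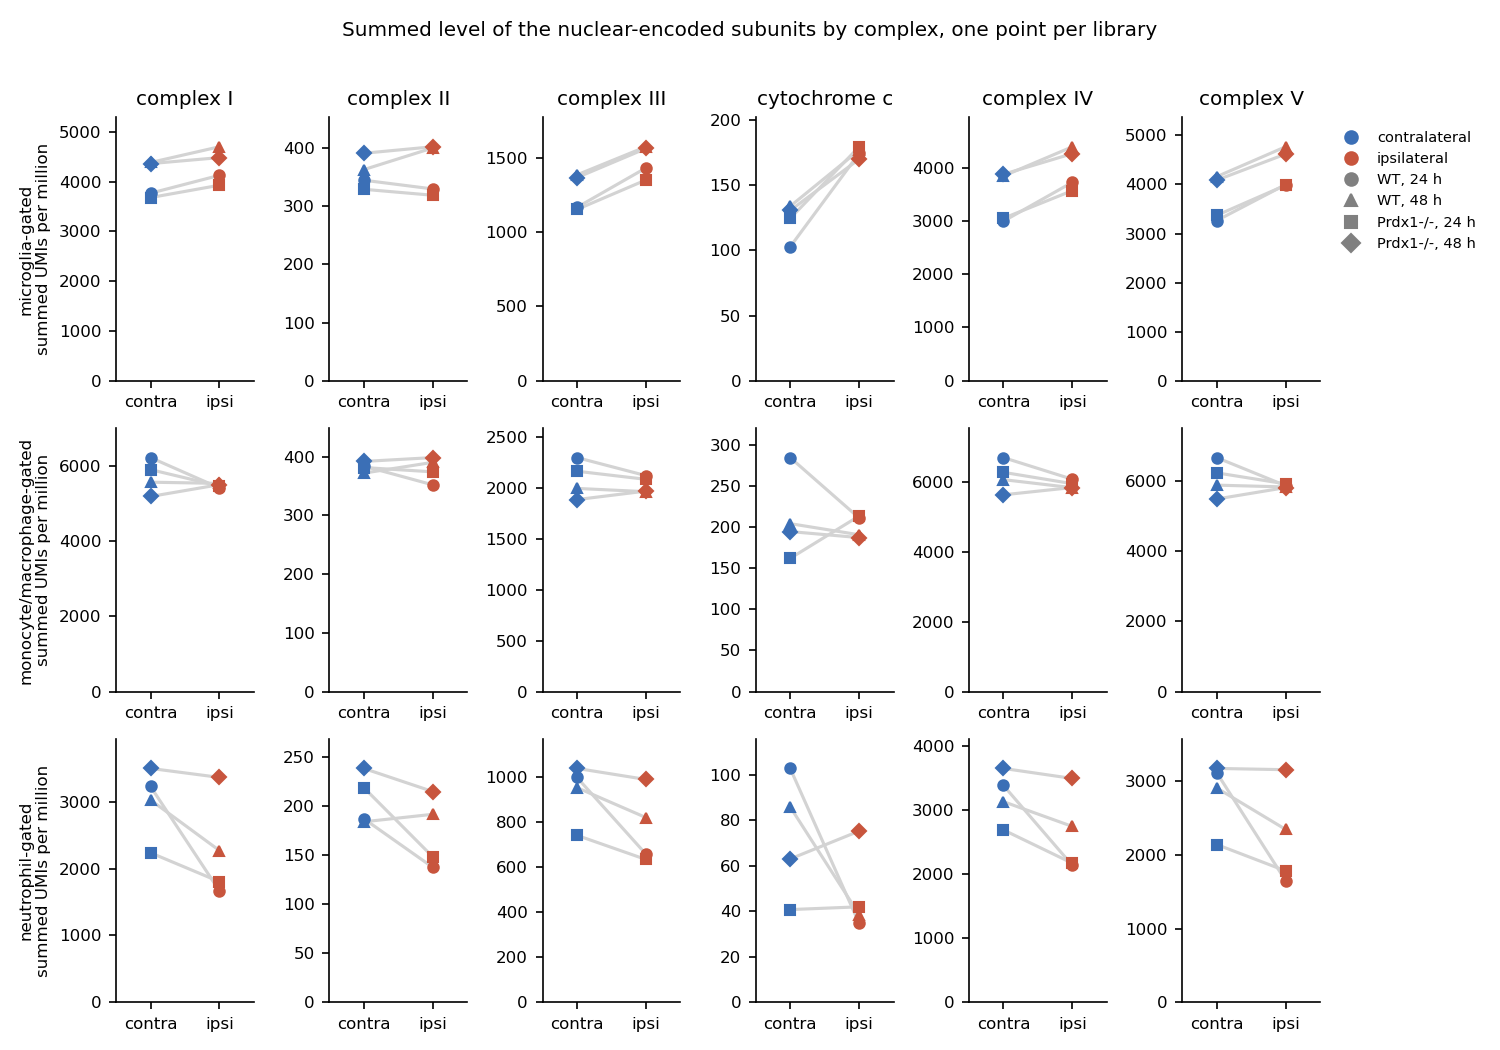
Summed CPM of the respiratory chain genes by complex (columns) in the microglia, monocyte/macrophage and neutrophil gates (rows), 1 point per library, with contralateral and ipsilateral libraries of the same genotype label and time joined by a line. In microglia the points for complexes III, IV and V rise from the contralateral to the ipsilateral side in each of the 4 pairs, and in monocytes the 2 sides overlap.

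In microglia, most respiratory chain genes stood higher on the ipsilateral side. Microglia are the resident macrophages of the brain. Their summed level was 11845, 11914, 14472 and 14419 CPM on the contralateral side and 14005, 13541, 16204 and 15695 CPM on the ipsilateral side, in the order WT 24 h, labelled Prdx1-/- 24 h, WT 48 h, labelled Prdx1-/- 48 h, which is kept below. The ipsilateral library was the higher of each matched pair, and the sides overlapped because the 48 h libraries were above the 24 h ones on both (13162 ± 1482 CPM against 14861 ± 1288, SD, n = 4 each). In the quasi-likelihood test of edgeR, adjusted over all genes tested by Benjamini-Hochberg (adjusted p under 0.05), 53 of the 91 genes that passed the low-count filter rose and 2 fell. Over all genes, 21% rose and 21.8% fell. The median log2 fold change was 0.24 over the 91 genes and -0.01 over all genes. How this count depends on the depth of the cells follows after the complexes.

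Complex I, the NADH dehydrogenase, had 20 of 36 subunits higher and none lower, with a median log2 fold change of 0.21. Summed, its subunits stood at 3765, 3677, 4382 and 4359 CPM contralaterally and at 4125, 3925, 4698 and 4480.2 CPM ipsilaterally, so that each pair rose but the sides overlapped. Ndufc1, a small membrane subunit, stood at 81.7, 77.3, 111 and 108 CPM contralaterally and 116, 95.2, 139.7 and 136 CPM ipsilaterally. It was higher in all 4 pairs (log2 fold change 0.45 ± 0.06, SE, adjusted p = 0.000832). Ndufb2, another accessory subunit of the membrane arm, rose by 0.37 ± 0.06 (adjusted p = 0.00192). The Ndufaf assembly factors, which help build complex I and are not part of it, summed to 209 ± 1.32 CPM contralaterally and 207 ± 13.2 CPM ipsilaterally. Ndufaf7, an arginine methyltransferase needed early in complex I assembly, went from 41.9, 38.7, 40.1 and 38.2 CPM to 27.2, 27.2, 30.3 and 31.2 CPM. Its sides did not overlap (-0.38 ± 0.07, adjusted p = 0.00351), and it was the 1 assembly factor that fell, while 1 other, Ndufaf2, rose (0.37). Ndufaf2 is named here because of its value.

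Complex II, succinate dehydrogenase, which also acts in the tricarboxylic acid cycle, was close on the 2 sides in sum, at 357 ± 26.6 CPM contralaterally and 363 ± 44.6 ipsilaterally. Sdhb, its iron-sulfur subunit, stood at 99.5, 97.4, 113 and 118 CPM contralaterally and 110.3, 107, 132 and 132 ipsilaterally, and rose (0.25 ± 0.06, adjusted p = 0.00824). Sdhc, a membrane anchor, passed narrowly (0.18 ± 0.06, adjusted p = 0.0404), and it missed the threshold without any 1 of the 8 libraries (adjusted p 0.054 to 0.114). The flavoprotein Sdha (0.01, adjusted p = 0.917) and the anchor Sdhd (-0.04, adjusted p = 0.642) did not pass. Complex III passed in 5 of 8 genes, all higher, with a sum of 1166, 1151, 1384 and 1366 CPM against 1431, 1349.8, 1573 and 1561 CPM. Uqcrq, a small subunit near the ubiquinone-binding core, stood at 181, 186, 239.6 and 255 CPM contralaterally and 297, 263, 328 and 319 CPM ipsilaterally, with no overlap (0.59 ± 0.08, adjusted p = 0.000719). Uqcr10 rose by 0.33 ± 0.07 (adjusted p = 0.0047).

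Cytochrome c, which carries electrons from complex III to IV and triggers the caspase cascade once released to the cytosol, is encoded by Cycs. Its level was 103, 125, 134 and 131 CPM contralaterally and 175, 179.6, 177 and 170.1 CPM ipsilaterally. The sides did not overlap, and the ipsilateral libraries lay within a narrow band (123 ± 14.0 against 175 ± 4.04 CPM). The log2 fold change was 0.60 ± 0.10 (adjusted p = 0.00146), and it passed under each of 19 alternative settings, between 0.46 and 0.69, with adjusted p from 1.56e-07 to 0.00775.

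In complex IV, cytochrome c oxidase, 11 of 18 genes tested rose and 1 fell. Cox5a, a nuclear subunit present in all tissues, stood at 156, 169.9, 228 and 229 CPM contralaterally and 236, 256, 284 and 293 CPM ipsilaterally (0.55 ± 0.09, adjusted p = 0.00139), and the sides did not overlap. Cox7a2, the widely expressed form of subunit VIIa, rose by 0.42 ± 0.07 (adjusted p = 0.00178), Cox6a1 by 0.41 ± 0.07 (adjusted p = 0.00255) and Ndufa4, which is named for complex I but sits in complex IV, by 0.41 ± 0.08 (adjusted p = 0.00396). Cox4i1 (0.20, adjusted p = 0.0632) and Cox8a (0.19, adjusted p = 0.0609), both widely expressed subunits, did not pass. Neither did Cox7a2l, known as a factor for supercomplexes of III and IV (-0.19, adjusted p = 0.137). Of ATP synthase, 13 of 16 genes rose and none fell. Atp5g3, which encodes the c subunit of the proton-driven ring, stood at 98.7, 103, 151 and 158 CPM against 134, 139, 184 and 182 CPM (0.43 ± 0.07, adjusted p = 0.00205). Atp5j, a subunit of the peripheral stalk, stood at 203, 202, 283 and 264 CPM against 264, 243, 354 and 323 CPM (0.40 ± 0.07, adjusted p = 0.00265). Both were higher in each of the 4 pairs, with sides that overlapped through the difference between 24 h and 48 h. Atp5g1, another c-subunit gene, named here because of its values, had sides that did not overlap, at 205, 222, 289 and 275 CPM against 338, 354, 349 and 337 CPM (0.58).

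Isoforms known from other tissues were scarce, and each rests on few molecules or on a shared locus. Cox7a1, the heart and muscle form of VIIa, stood at 0.412 to 1.17 CPM contralaterally and 1.44 to 1.97 CPM ipsilaterally (1.38 ± 0.32, adjusted p = 0.00823). At 48 h alone it did not pass (0.81, adjusted p = 0.195). Cox6a2, the muscle form of VIa, stood at 23.8, 28.7, 24.8 and 27.8 CPM against 31.1, 28.4, 36.1 and 32.1 CPM (0.36 ± 0.10, adjusted p = 0.0136). Its gene lies within the integrin gene Itgad on the other strand. The counting is not stated to use strand, so that it is not known whether RNA of these genes was told apart. Ndufa4l2, a relative of Ndufa4 known to be induced by hypoxia, fell (-1.94 ± 0.51, adjusted p = 0.0145), from 18, 32, 5 and 11 UMIs to 5, 3, 1 and 1 UMIs in whole libraries. It did not pass without the contralateral WT 24 h library or without either 24 h library labelled Prdx1-/- (adjusted p 0.0617 to 0.0974), nor with DESeq2. Markers of mural cells, which lie in vessel walls, were also lower ipsilaterally in this gate, at 4.68 to 14.0 against 0.116 to 2.44 CPM. The part of RNA from such cells in Ndufa4l2 was not tested. Cox4i2, the form of Cox4 found in lung, did not pass (0.47, adjusted p = 0.454).

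**Figure D2:**
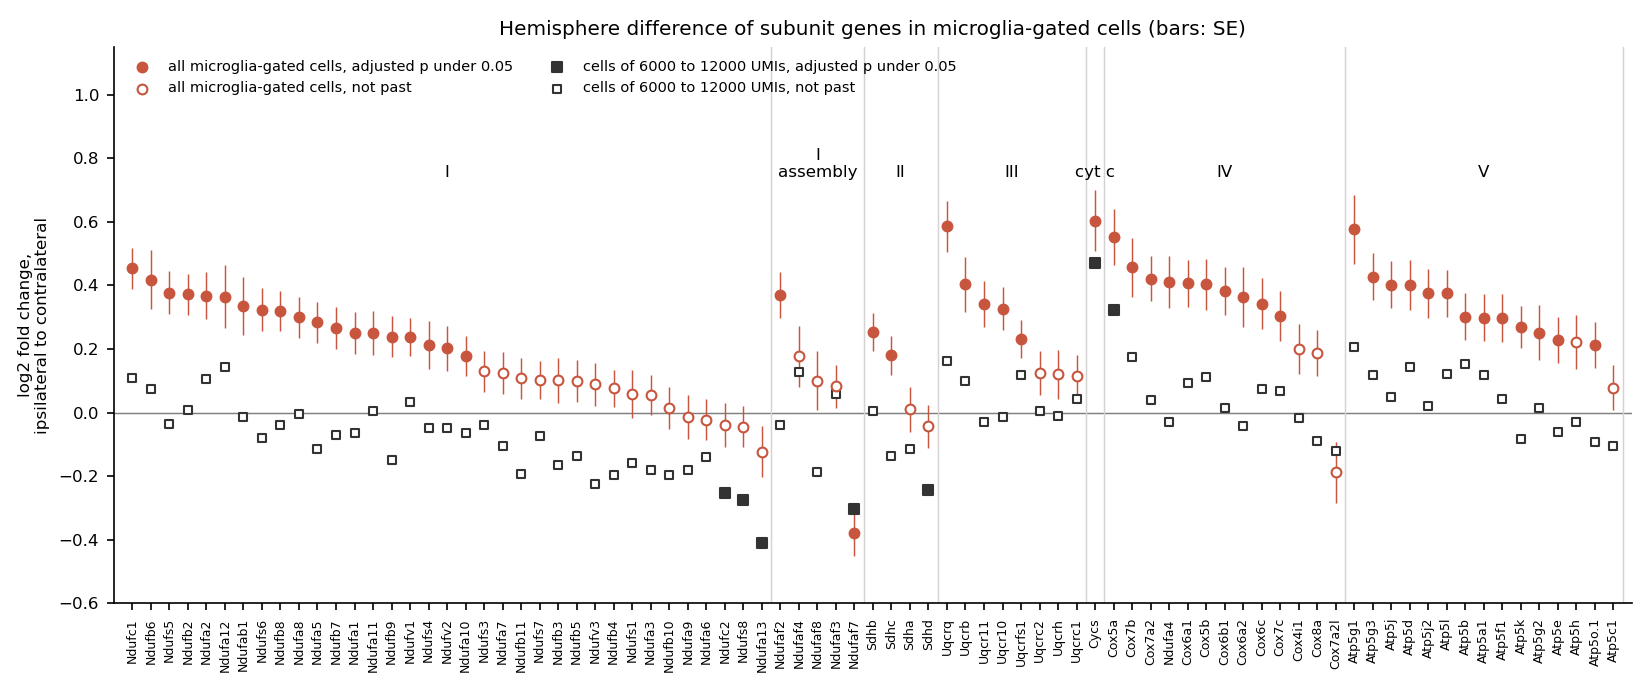
Log2 fold change from the contralateral to the ipsilateral side in microglia-gated cells for respiratory chain genes with a mean of at least 20 CPM, ordered by complex; circles with SE bars are all cells, squares are cells of 6000 to 12000 UMIs, and filled symbols have an adjusted p under 0.05. Most circles lie above 0, whereas the squares lie on both sides of 0 and only a few are filled, Cycs at 0.47 and Cox5a at 0.32 among the higher ones.

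The difference between sides moved with the number of UMIs per cell. Ipsilateral microglia-gated cells had a median of 11224 to 12418 UMIs, against 7074 to 7826 contralaterally, and in each contralateral library the share of respiratory chain RNA rose from band to band of UMIs per cell from 4000 UMIs on. Contralateral cells of 4000 to 6000 UMIs averaged 10721 CPM over the 4 libraries, and cells of 18000 to 30000 UMIs 17776 CPM. Within single bands the sides were close from 6000 UMIs on. Ipsilateral cells averaged 11145 CPM against 11287 CPM at 6000 to 9000 UMIs (higher in 1 of 4 pairs), 11900 against 12767 CPM at 9000 to 12000 UMIs (0 of 4 pairs), 13846 against 14930 CPM at 12000 to 18000 UMIs (1 of 4) and 17400 against 17776 CPM at 18000 to 30000 UMIs (2 of 4). Below that range they were higher, at 11779 against 10721 CPM for 4000 to 6000 UMIs (4 of 4 pairs), and at 14540 against 10664 CPM for 2000 to 4000 UMIs, where 3 ipsilateral libraries had 20 to 30 cells each and the WT 48 h library, at 19014 CPM, had 20.

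**Figure D3:**
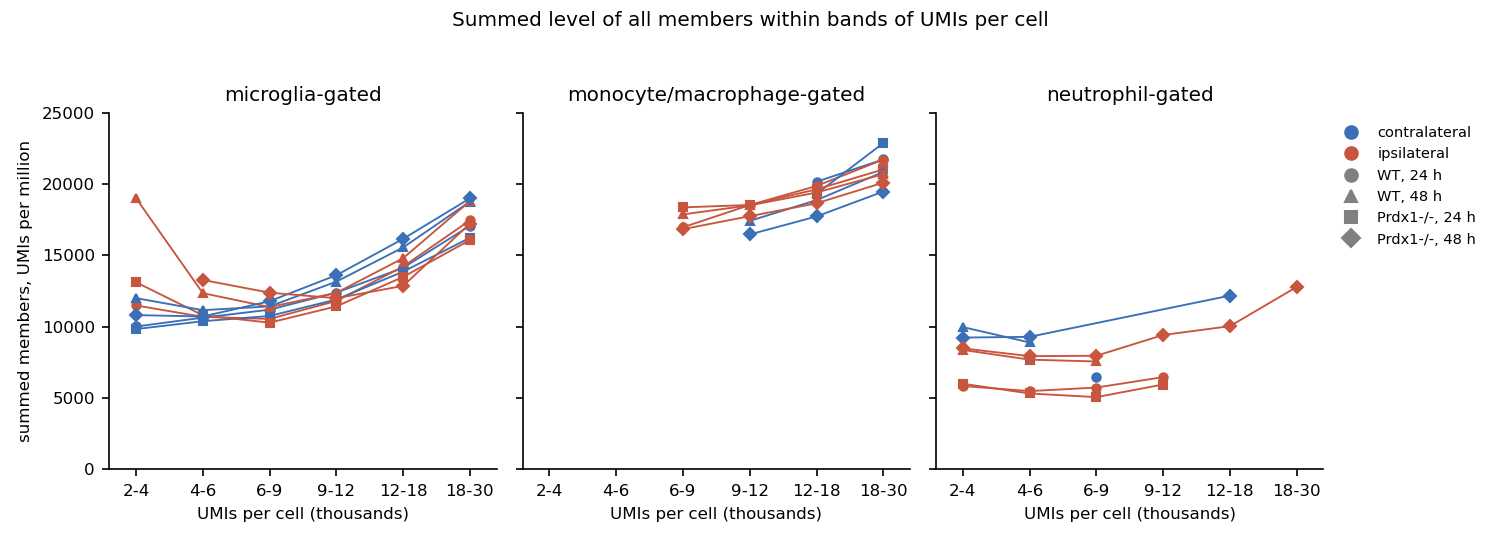
Summed CPM of the respiratory chain genes in cells grouped by UMIs per cell (horizontal axis) in the microglia, monocyte/macrophage and neutrophil gates, 1 line per library. In microglia every line is higher at 18000 to 30000 UMIs than at 4000 to 6000 UMIs, and the contralateral mean goes from 10721 to 17776 CPM between these bands.

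Restricted to cells of 6000 to 12000 UMIs, a setting chosen after the data were seen, 3 of 89 respiratory chain genes rose and 5 fell, with a median log2 fold change of -0.02, the same as over all genes. Over all genes, 11% rose and 12.1% fell in these cells (2853 of 12334 passed). Depth was not fully matched, since ipsilateral cells within this range still had more UMIs (medians of 8255 to 8948 against 7629 to 8000). The genes that rose were Cycs (0.47, adjusted p = 0.00166), Cox5a (0.32, adjusted p = 0.0142) and the scarce Cox7a1 (1.46, adjusted p = 0.046). Those that fell were Ndufaf7 (-0.30, adjusted p = 0.0365), Sdhd (-0.24, adjusted p = 0.0442) and 3 complex I subunits named here because of their values: Ndufa13, an accessory subunit also called GRIM-19 (-0.41, adjusted p = 0.00603), Ndufs8, a core iron-sulfur subunit (-0.27, adjusted p = 0.0229), and Ndufc2 (-0.25, adjusted p = 0.0391). Ndufa13 had stood at 233, 208, 256 and 237 CPM contralaterally and 185, 174, 253 and 201 CPM ipsilaterally over all cells, lower in each pair. The medians by complex moved from 0.21 to -0.07 in complex I, from 0.10 to -0.13 in II, from 0.28 to 0.03 in III, from 0.39 to 0.07 in IV and from 0.30 to 0.03 in V. Cycs in cells of 6000 to 9000 UMIs stood at 91.5, 103, 98.9 and 103 CPM contralaterally and 113, 139.7, 126 and 138 CPM ipsilaterally, so that its sides did not overlap there. At 4000 to 6000 UMIs it stood at 72.4, 93.1, 91.7 and 83.6 CPM against 85.5, 132, 125 and 152 CPM, and at 18000 to 30000 UMIs at 201, 200.4, 178 and 188 CPM against 228, 209.6, 195 and 165 CPM. In both bands the sides overlapped, and in the deepest cells the pair labelled Prdx1-/- at 48 h was lower ipsilaterally.

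Other markers moved with hemisphere in the same gate. The 10 microglia markers summed to 16074 to 24227 CPM contralaterally and 10185 to 11992 CPM ipsilaterally, with 0 of 10 higher on the ipsilateral side and none at 0. Monocyte and macrophage markers summed to 52.3 to 195 against 151 to 457 CPM (9 of 10 higher), and neutrophil markers to 26.8 to 222 against 218 to 832 CPM (9 of 10 higher). Scarcer lists went both ways. Mural markers summed to 4.68 to 14.0 against 0.116 to 2.44 CPM (0 of 4 higher) and astrocyte markers to 11.2 to 14.2 against 3.03 to 10.5 CPM (0 of 6 higher). Erythrocyte markers summed to 17.1 to 208 against 40.0 to 402 CPM (5 of 5 higher), although the WT 48 h pair was lower ipsilaterally (175 against 40.0 CPM). B cell markers, which were not as scarce, summed to 166 to 260 against 91.7 to 105 CPM (1 of 7 higher). These counts of markers compare the means of the sides. In microglia-gated cells without a single UMI of the monocyte and macrophage markers, also chosen after the data were seen, 32 of 91 genes rose and 1 fell (median 0.21). Over all genes tested in these cells, 16% rose and 16.2% fell. At 48 h alone, 24 of 90 rose and 2 fell, against 13.8% and 14.5% over all genes. The part of neutrophil markers, of B cell markers, of the scarcer lists and of the lower microglia markers in the difference was not tested.

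Over all microglia-gated cells the balance between complexes also differed by side. In microglia the ratio of complex IV to complex I RNA was 0.796 to 0.889 contralaterally and 0.903 to 0.952 ipsilaterally (means 0.848 and 0.925). The ratio of complex V to I was 0.867 to 0.949 against 0.969 to 1.03, and that of III to I 0.310 to 0.316 against 0.335 to 0.348. None of these ranges overlapped between sides. Complex I accordingly took 30.2 to 31.8% of the summed respiratory chain UMIs contralaterally and 28.5 to 29.5% ipsilaterally. Within depth bands from 4000 to 18000 UMIs the ratios of IV to I and of V to I were higher ipsilaterally in 4 of 4 pairs of each band, and in 2 and 3 of 4 pairs at 18000 to 30000 UMIs. The ratio of III to I was higher in 3 of 4 pairs at 12000 to 18000 and at 18000 to 30000 UMIs. The mean ratio of IV to I rose with depth, and the sides drew closer. It was 0.771 contralaterally and 0.878 ipsilaterally at 4000 to 6000 UMIs, 0.915 and 0.926 at 12000 to 18000, and 0.945 and 0.947 at 18000 to 30000. The part of depth in the ratios over all cells was not tested. These ratios were chosen with the values by complex known and carry no test. Monocytes (1.05 to 1.12) and neutrophils (1.04 to 1.29) had a higher ratio of IV to I than microglia in every library.

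**Figure D4:**
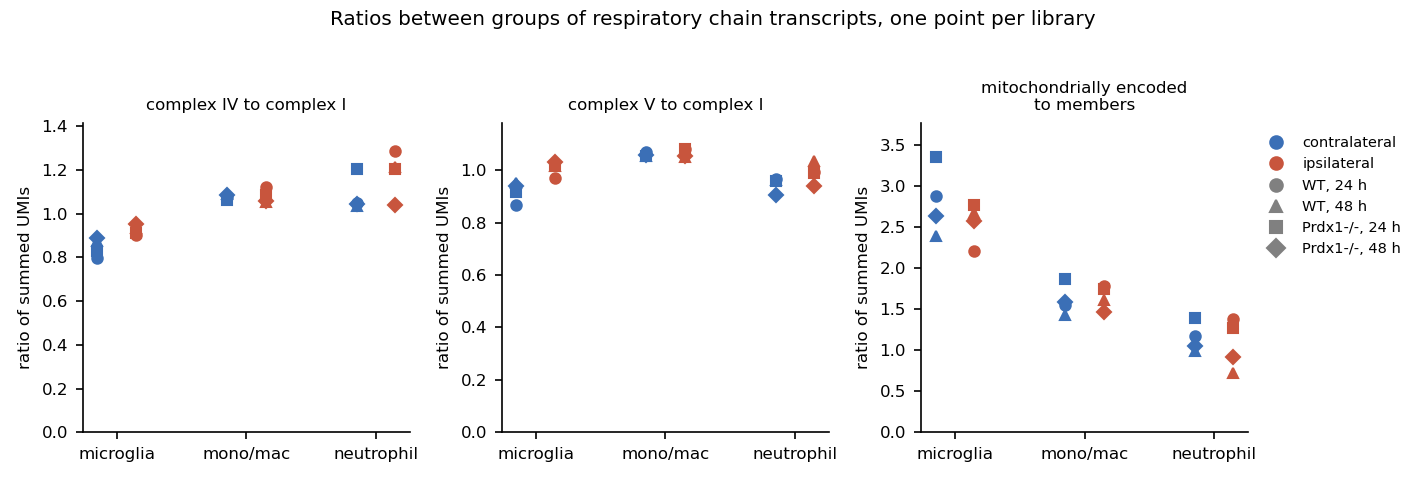
Ratios of summed UMIs in each library of the microglia, monocyte/macrophage and neutrophil gates: complex IV to I, complex V to I, and mitochondrially encoded subunits to the nuclear respiratory chain genes. In microglia the ipsilateral libraries lie above the contralateral ones for IV to I (0.903 to 0.952 against 0.796 to 0.889), and neutrophils have the lowest ratios of mitochondrially encoded to nuclear RNA (0.727 to 1.40).

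Of the 13 subunits made from mitochondrial DNA, 3 rose on the ipsilateral side in microglia and none fell (median log2 fold change 0.21; mt-Nd1 0.34). Their sum did not go one way: it was 34061, 40024, 34573 and 38042 CPM contralaterally and 30889.8, 37552, 43218 and 40370.0 CPM ipsilaterally, lower in both 24 h pairs and higher in both 48 h pairs. The ratio of their summed UMIs to those of the nuclear genes was 2.39 to 3.36 contralaterally and 2.21 to 2.77 ipsilaterally in microglia, higher ipsilaterally in 1 of 4 pairs, 1.42 to 1.87 in monocytes and 0.727 to 1.40 in neutrophils. Cells with over 10% mitochondrial UMIs had been left out, which caps these ratios.

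Time after occlusion went with higher levels in microglia on both sides. From 24 h to 48 h, 25 of 91 genes rose and 1 fell (over all genes 6.56% rose and 3.77% fell), with a median log2 fold change of 0.20 against -0.01 over all genes. The genes that rose were 8 of complex I, 2 of II, 2 of III, 6 of IV and 7 of V, while Cycs did not pass (0.07, adjusted p = 0.705). Atp5g3, with the values given above, rose by 0.49 ± 0.07 (adjusted p = 0.0034). Ndufa1, a small accessory subunit needed to assemble complex I, stood at 77.4 and 67.3 CPM contralaterally and 89.6 and 78.8 CPM ipsilaterally at 24 h, and at 107 and 98.5 CPM and 121 and 99.8 CPM at 48 h. Its times did not overlap (0.42 ± 0.07, adjusted p = 0.00445). Sdhd rose by 0.40 ± 0.07 (adjusted p = 0.00665), Ndufc1 by 0.40 ± 0.06 (adjusted p = 0.00503), Uqcr10 by 0.41 ± 0.07 (adjusted p = 0.0056) and Atp5j by 0.40 ± 0.07 (adjusted p = 0.00957).

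The gene that fell was Ndufaf4, an assembly factor of complex I, from 42.8, 43.1, 52.0 and 53.6 CPM at 24 h to 34.6, 38.9, 32.0 and 34.0 CPM at 48 h (-0.47 ± 0.10, adjusted p = 0.0154). Its times did not overlap. Without the ipsilateral library labelled Prdx1-/- at either time, or without the ipsilateral WT library at 48 h, it did not pass (adjusted p 0.0543 to 0.0657). The count of 26 did not hold its size. It was 10, 15, 9 and 10 without the contralateral WT, ipsilateral WT, contralateral Prdx1-/- labelled and ipsilateral Prdx1-/- labelled library of 24 h, and 13, 8, 9 and 12 without the same libraries of 48 h. With cells limited to 5% mitochondrial UMIs 3 rose and 2 fell (over all genes 4.17% and 1.94%). In cells of 6000 to 12000 UMIs 1 rose, Ndufa1 (0.34), and none fell (1.56% and 0.316%), and in cells without monocyte markers edgeR called 0, with 22 of 91 at an unadjusted p under 0.05 (2.27% and 0.494%).

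In monocytes and macrophages, no gene passed between the 2 sides. These cells enter the brain from the blood after occlusion, and the contralateral gate held few of them. Summed, the genes stood at 22761, 21266, 20237 and 18928 CPM contralaterally and 20178, 20134, 19879 and 19854 CPM ipsilaterally (20798 ± 1621 against 20011 ± 169), with overlap. edgeR called 0 of 89 genes between sides, and 3 had an unadjusted p under 0.05. DESeq2 and limma also called 0 (over all genes 2.07% rose and 0.729% fell), and the median log2 fold change was 0.01 against -0.03 over all genes. From 24 h to 48 h, 3 of 89 fell and none rose (over all genes 0.596% fell and 1.13% rose), with a median of -0.15. They were Uqcrc1, a core protein of complex III (-0.69 ± 0.10, adjusted p = 0.0198), Uqcrq (-0.42 ± 0.08, adjusted p = 0.0436) and Atp5b, the catalytic beta subunit of ATP synthase (-0.55 ± 0.09, adjusted p = 0.0319).

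Atp5b stood at 673, 544, 525 and 549.5 CPM at 24 h (contralateral WT and labelled Prdx1-/-, then ipsilateral) and at 423, 402, 392 and 407 CPM at 48 h. Uqcrc1 stood at 166, 122, 119 and 119.7 CPM and then at 86.5, 82.6, 79.9 and 86.2 CPM. For both genes, as for Uqcrq at 446, 449, 431 and 399.9 and then 324, 323, 339 and 349.9 CPM, the 2 times did not overlap. The 3 calls were nevertheless lost, to 0, without the ipsilateral WT 24 h, ipsilateral Prdx1-/- labelled 24 h, contralateral WT 48 h, ipsilateral WT 48 h or contralateral Prdx1-/- labelled 48 h library, each left out alone, and were 2 without the contralateral WT 24 h or the ipsilateral Prdx1-/- labelled 48 h library. DESeq2 called 15 (over all genes 3.03% rose and 2.78% fell with it) and limma 4, for which the share over all genes is not given.

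Neutrophils had a lower sum on the ipsilateral side in each pair, but no gene passed. The sum was 11093, 8122, 10371 and 11763 CPM contralaterally and 6340.5, 6638, 8480.3 and 11373 CPM ipsilaterally, and the sides overlapped. edgeR called 0 of 84 genes, with 4 at an unadjusted p under 0.05, and DESeq2 and limma called 0 (over all genes 0% rose and 0% fell), while the median log2 fold change was -0.38 against -0.00 over all genes and 10 of 84 were positive. Without the ipsilateral library labelled Prdx1-/- at 48 h, 3 genes passed, and the share over all genes in that fit is not given. Cycs stood at 103, 40.8, 85.9 and 63.0 CPM contralaterally and 34.7, 42.0, 38.6 and 75.3 CPM ipsilaterally. Here the ipsilateral library labelled Prdx1-/- at 48 h was higher than its contralateral partner. Between times edgeR called 0 of 84 genes, with 3 at an unadjusted p under 0.05 and 0 by DESeq2 and limma (over all genes 0% rose and 0.0326% fell). Without the contralateral WT 24 h library 1 passed, again with no share over all genes given.

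The genotype label went with no called difference in these genes. edgeR called 0 of 91 in microglia, 0 of 89 in monocytes and 0 of 84 in neutrophils, with 3, 2 and 1 genes at an unadjusted p under 0.05, and DESeq2 and limma called 0. Over all genes, 0% rose and 0% fell in each gate. In microglia Prdx1 itself was thus not called, so that these counts cannot show that the label makes no difference. The median log2 fold changes from WT to labelled Prdx1-/- were -0.01, -0.07 and 0.05. At 48 h alone, where Prdx1 RNA was near 0 in both libraries labelled Prdx1-/-, edgeR again called 0 of 90, 89 and 82 genes, with 6, 14 and 13 at an unadjusted p under 0.05, and the medians were -0.08, -0.13 and 0.37. The fit at 48 h alone rested on 1 library per combination of hemisphere and genotype label. Its share over all genes is not given, nor is whether Prdx1 itself was called. Neither the 0 calls nor the unadjusted counts at 48 h can therefore show whether the label makes a difference. The largest candidates by p in microglia, Ndufa3 (-0.22, adjusted p = 0.279) and Ndufa1 (-0.18, adjusted p = 0.392), were lower in all 4 pairs and are named here because of their values. At 48 h alone they did not pass either (-0.18, adjusted p = 0.360, and -0.24, adjusted p = 0.193). The difference between hemispheres was also not called to depend on the genotype label (0 of 91, 0 at an unadjusted p under 0.05, 0 by DESeq2 and limma, over all genes 0% higher and 0% lower). That fit includes the 24 h libraries, since it could not be made at 48 h alone.

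The hemisphere difference depended on time for 1 of 91 genes, Cox8b, the heart and muscle form of subunit VIII (over all genes 0.146% higher and 0.241% lower, 9 of the 91 at an unadjusted p under 0.05). In UMIs it was 11, 14, 37 and 30 contralaterally and 48, 54, 0 and 1 ipsilaterally. That is 0.349, 0.353, 1.24 and 1.10 CPM, against 1.31, 2.09, 0 and 0.138 CPM. The 2 ipsilateral 48 h libraries are therefore below the level of 3 UMIs (0.348 and 0.414 CPM), where a count of 0 allows up to that level. The interaction had an adjusted p of 0.0308 with edgeR and was also called by DESeq2. It was not called by limma, with the stricter gate or with cells limited to 5% mitochondrial UMIs, nor without any 1 of the contralateral WT 48 h, ipsilateral WT 48 h and ipsilateral Prdx1-/- labelled 48 h libraries. Cox8b in ipsilateral neutrophils stood at 4.34, 1.47, 0 and 0.434 CPM, and the part of RNA from such cells in the microglia gate was not tested.

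Set against microglia of the same 4 ipsilateral libraries, monocytes and macrophages carried more RNA of nearly every subunit. Of 90 genes tested, 77 were higher and 6 lower (over all genes 32.1% higher and 35.9% lower), with a median log2 difference of 0.88 against -0.09 over all genes. Scaled to library totals without TMM (trimmed mean scaling, which sets the bulk of genes to no change), 53 were higher and 15 lower, with medians of 0.35 and -0.61 (over all genes 18.5% higher and 57.3% lower). All 4 of complex II, 8 of 8 of complex III, 32 of 36 of complex I, 14 of 17 of IV and 15 of 16 of V were higher under TMM. The signs of 3 named genes depended on the scaling: Sdhc (0.31 under TMM, -0.21 without), Sdha (0.24 and -0.29) and Ndufa4 (0.50 and -0.03). Sdha also lost its call without any 1 of the ipsilateral WT 24 h, ipsilateral WT 48 h and ipsilateral Prdx1-/- labelled 24 h libraries (adjusted p 0.0548 to 0.0719).

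Single members show the size of these differences. Uqcrh, the hinge protein that links cytochrome c1 to cytochrome c, stood at 228, 231, 288 and 267 CPM in microglia and 547, 535, 568 and 550.3 CPM in monocytes (1.65 ± 0.10, adjusted p = 4.45e-06). Ndufa6, an accessory subunit of the LYR family, stood at 93.3, 85.8, 111 and 114 CPM and 266, 225, 229 and 231 CPM (1.77 ± 0.12, adjusted p = 7.77e-06). Atp5l, the g subunit of ATP synthase involved in its dimers, stood at 304, 288, 370.4 and 352 CPM and 661, 619, 632 and 652 CPM (1.50 ± 0.10, adjusted p = 9.44e-06). In each the gates did not overlap. Cox5b (1.35), Cox6c (1.30) and Cox7a2l (1.43) were higher in complex IV, and Cycs was too (0.72 ± 0.08, adjusted p = 0.000132), although without TMM it did not pass (0.19, adjusted p = 0.0578).

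Of the 6 lower genes, 4 were assembly factors of complex I, and 3 other Ndufaf genes were higher. Ndufaf4 stood at 52.0, 53.6, 32.0 and 34.0 CPM in microglia and 14.9, 11.4, 11.2 and 14.7 CPM in monocytes (-1.17 ± 0.16, adjusted p = 0.000434). Ndufaf7 was lower (-0.68), as was Cox6a2 (-1.68 ± 0.45, adjusted p = 0.0215), a call lost without the ipsilateral library labelled Prdx1-/- at 48 h (adjusted p = 0.0844). Cox6b2, a testis form of subunit VIb named here because of its value, was higher (3.17), at 1.10 to 2.74 CPM in microglia and 7.34 to 12.9 CPM in monocytes over all 8 libraries. Within the band of 12000 to 18000 UMIs the sum kept its order, with 13846 CPM in ipsilateral microglia and 19398 CPM in ipsilateral monocytes.

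**Figure D5:**
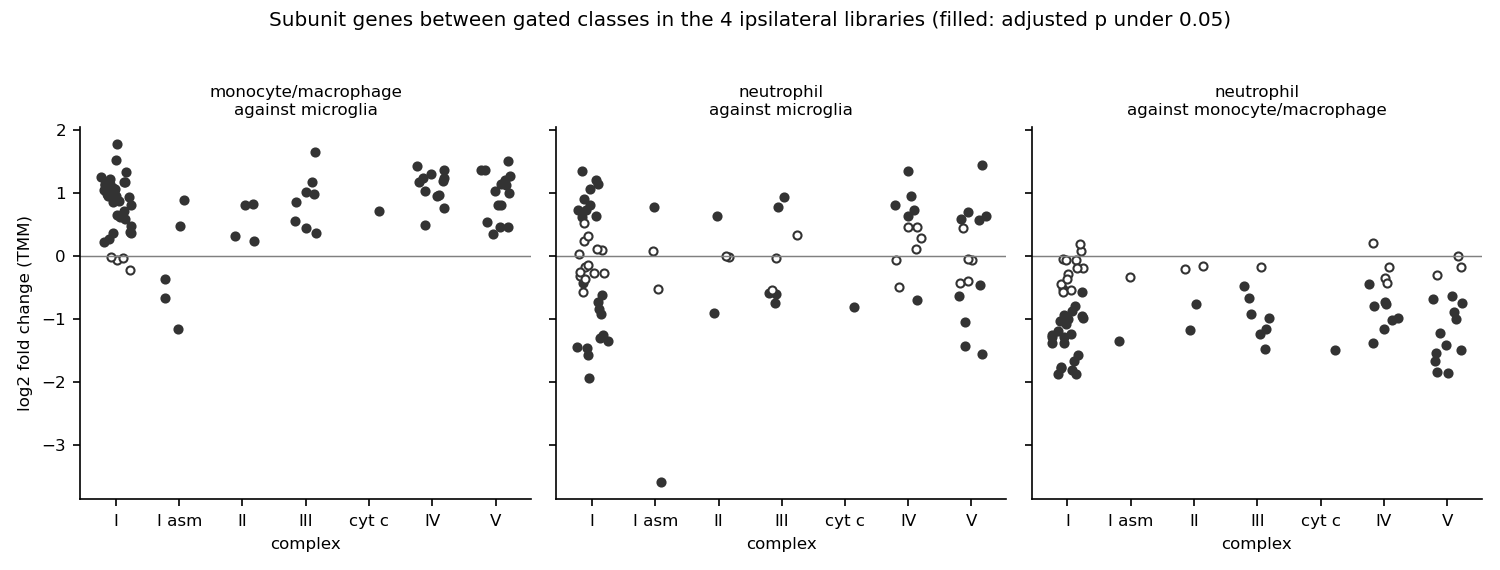
Log2 difference between gates in the ipsilateral libraries, TMM scaled, for respiratory chain genes with a mean of at least 20 CPM, by complex; filled points have an adjusted p under 0.05. Monocytes lie above microglia for nearly every gene, most neutrophil points lie below monocytes (60 of the 89 genes tested passed as lower), and against microglia the points spread to both sides (25 of the 90 tested passed as higher and 30 as lower, with none higher without TMM).

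Neutrophils against monocytes had 2 genes higher and 60 lower of 89 (over all genes 31.5% higher and 33% lower), with a median of -0.95 against -0.06 over all genes. Without TMM it was 2 higher and 85 lower, with medians of -1.60 and -0.70 (over all genes 17.7% higher and 50.1% lower). Atp5g1, the c-subunit gene, stood at 301, 318, 344 and 352 CPM in monocytes and 43.9, 58.2, 48.4 and 91.7 CPM in neutrophils (-1.85 ± 0.21, adjusted p = 9.15e-05). Ndufs3, a core subunit of the complex I arm that faces the matrix, stood at 78.8, 81.6, 77.7 and 78.6 CPM against 11.5, 16.2, 16.8 and 25.9 CPM (-1.57 ± 0.19, adjusted p = 0.000149). Cycs, at 211, 213, 191 and 187 against 34.7, 42.0, 38.6 and 75.3 CPM, was lower too (-1.49 ± 0.22, adjusted p = 0.000399). Atp5d (-1.67) and Cox7b (-1.39) followed, while Cox8a (0.21, adjusted p = 0.337) and Sdhd (-0.16, adjusted p = 0.398) did not pass. Complex I had 24 of 36 lower, II 2 of 4, III 7 of 8, IV 9 of 16 and V 12 of 16. The 2 higher were Ndufaf7 (1.48) and Cox8b (2.70), named because of their values. Cox8b rested on few molecules, at 26, 10, 0 and 6 UMIs in neutrophils and 3, 4, 18 and 3 UMIs in monocytes. In the WT 48 h library it was lower in neutrophils (0 against 0.457 CPM).

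Against microglia the calls for neutrophils depended on the scaling, as did those over all genes. Under both scalings the median of these genes lay a little above that over all genes. With TMM, 25 of 90 genes were higher and 30 lower (over all genes 31.3% higher and 38.8% lower), with a median of -0.07 against -0.27 over all genes, whereas by library total 0 were higher and 66 lower (-1.21 against -1.39, over all genes 15.3% higher and 63.8% lower). Neutrophil markers took 16.5 to 33.5% of the UMIs of this gate. Genes lower under both scalings were Atp5g2 (-1.57 with TMM and -2.69 without), Atp5g1 (-1.44 and -2.57), Ndufs3 (-1.35 and -2.48), Cycs (-0.82 and -1.95) and Ndufaf4 (-3.60 and -4.75). Atp5l (1.44), Cox8a (1.35), Ndufa3 (1.35) and Ndufb9 (1.20) were higher with TMM and did not pass without it (0.32, 0.23, 0.22 and 0.08). Uqcrh (0.94), Cox5b (0.96), Atp5f1 (0.69), Uqcr10 (0.78) and Sdhd (0.63) were higher with TMM and had the opposite sign without it (-0.19, -0.17, -0.44, -0.35 and -0.50). Sdhd also lost its call without either ipsilateral 24 h library (adjusted p 0.0572 to 0.0766). Leaving out the ipsilateral library labelled Prdx1-/- at 24 h lowered the count from 55 to 36. At 6000 to 9000 UMIs per cell, ipsilateral microglia summed to 11145 CPM and neutrophils to 6572 CPM, with neutrophil markers counted in the totals.

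Neighbouring pathways give a setting for these values. In microglia the mitochondrial ribosome, which translates the mitochondrially encoded subunits, had 54 of 78 genes higher and 1 lower on the ipsilateral side, and Mrpl33 rose by 0.52 on the log2 scale. The cytosolic ribosome had 39 of 82 higher and none lower (median 0.23), close to the median of the respiratory chain genes (0.24). Of 14 genes of the tricarboxylic acid cycle 8 rose and 1 fell, with malate dehydrogenase Mdh2 at 0.42 and the dihydrolipoyl succinyltransferase Dlst at -0.29. Assembly factors outside the name rule had 2 higher and 2 lower of 25, the copper chaperone Cox19 at 0.29 and the complex IV factor Surf1 at -0.38. Of 12 regulators of mitochondrial biogenesis, the PGC-1 relative Pprc1 rose (0.41) and Ppargc1b, which encodes PGC-1beta, fell (-0.52). Pink1, the kinase that marks damaged mitochondria, fell (-0.59), the protease Lonp1 rose (0.49), as did Higd1a, a hypoxia-inducible partner of complex IV (0.49). Of 10 dissociation and immediate-early genes, Ier2 rose (0.95) and none fell.

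Between cell types the same lists differed. Against microglia, ipsilateral monocytes had 80 of 82 cytosolic ribosomal genes higher and none lower, 39 higher and 16 lower of the mitochondrial ribosome, and 3 higher and 3 lower of the 13 mitochondrially encoded genes (mt-Co1 0.99, mt-Nd2 -0.85). All 10 dissociation and immediate-early genes were lower in monocytes than in microglia. Against monocytes, neutrophils had 13 of 13 mitochondrially encoded genes, 62 mitochondrial ribosomal genes, 11 tricarboxylic acid cycle genes and 81 cytosolic ribosomal genes lower, with 2 mitochondrial ribosomal genes higher. Split by promoter letters, the hemisphere difference in microglia over all cells had similar medians. Of 28 genes with NRF1, GABPA or YY1 letters 16 rose and none fell (median 0.25). Of 47 tested genes with a window but without these letters 27 rose and 1 fell (median 0.24). A role of these factors was not tested.

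Of the 91 genes with a single model in GENCODE M21, 28 have an exon that overlaps an exon of a gene on the other strand and 4 of a gene on the same strand. Examples on the other strand are Atp5j with Gabpa, Cox5a with the unnamed model Gm26631, Cox4i1 with Emc8, Ndufa13 with Tssk6 and Ndufa4l2 with Shmt2. Other named genes do so as well, among them Ndufs3 (Kbtbd4), Ndufa3 (Tfpt), Atp5d (Cbarp), Atp5f1 (Wdr77), Atp5l (Gm30934), Cox6c (Vps13b) and Ndufb2 (Braf). Ndufb2, Ndufb9 and Atp5g2 overlap a gene on the same strand. The genes lie on 19 chromosomes. Whether RNA of neighbours on the other strand was told apart is not known, since the counting is not stated to use strand. Strand cannot separate neighbours on the same strand. Levels of different genes are not compared because 3' counts depend on each transcript.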

How the data were processed

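Per the labels' protocols, each hemisphere was perfused, dissociated with enzymes and cleared of myelin on Percoll, live cells were sorted with a viability dye, and 10x Genomics 3' chemistry was used. The submitters' processing notes name Cell Ranger, Seurat and mm10 and give no versions. The deposited values are raw UMI counts per gene and cell, already filtered by the authors, as the values show. The lowest count of a deposited cell was 501 UMIs, and the highest mitochondrial share was 19.9%. Cells needed 200 detected genes and no more than 10% mitochondrial UMIs (39608 of 39945 passed), and the 0.8% per 1000 cells most like simulated doublets were left out (1583 cells). A cell took the type with the highest mean marker expression, with at least 3 markers and a score at least 1.5 times the next. Counts were summed per gate and library (at least 20 cells) and fitted with edgeR 4.0.16 (quasi-likelihood, robust, TMM, filterByExpr; R 4.3.3) with Benjamini-Hochberg adjustment over all genes; gates were compared in the 4 ipsilateral libraries with the library as a block. limma 3.58.1 and DESeq2 1.42.0 were alternatives, and the fits were tested on simulated data. Python 3.11.15 with pandas 2.3.3, numpy 2.4.6 and scikit-learn 1.9.0 did the rest. In each comparison up to 2 genes per complex and direction were named, those with the smallest p past the threshold, at least 20 CPM and 1 sign in every pair, with Cycs, the Sdh genes and isoform pairs always, and up to 3 genes per direction of each other list. The genes, lists and tests were chosen with earlier results of these data known. Values of 1 of these genes are not reported here by name or drawn singly, although it is part of the sums and counts.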

Additional observations from a re-analysis of the deposited data

Results flagged for a closer look

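The difference between hemispheres of Cox8b in microglia-gated cells differed between 24 h and 48 h (log2 interaction -6.39 ± 0.956, SE, adjusted p = 0.0308, edgeR's quasi-likelihood test over all genes). From contralateral to ipsilateral, UMIs went from 11 to 48 and from 14 to 54 at 24 h, and from 37 to 0 and from 30 to 1 at 48 h. The fitted value depends on the prior count added to libraries at 0 and 1 UMI and is no bound. Of 42 sets of 4 libraries checked for a library far from the other 3, 0 held one.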

How the results depend on the processing

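Of 211 alternative counts over 14 comparisons, 182 stayed within 1.5 times the reported count and 29 did not. The hemisphere count in microglia (55) was 26 at 48 h alone, 8 in cells of 6000 to 12000 UMIs, 33 in cells without monocyte markers, and 39 to 55 without 1 library. The time count in microglia (26) was 5 with 5% mitochondrial UMIs, 1 in cells of 6000 to 12000 UMIs, 0 in cells without monocyte markers, and 8 to 15 without 1 library. The time count in monocytes (3) was 15 with DESeq2 and 0 to 3 without 1 library. The count for the interaction of hemisphere and time (1) was 0 with limma, with the stricter gate and with 5% mitochondrial UMIs, and 0 to 1 without 1 library. Without 1 library the neutrophil counts were 0 to 3 for hemisphere and 0 to 1 for time, and those between gates were 36 to 62 (neutrophils and microglia), 79 to 82 (monocytes and microglia) and 51 to 71 (neutrophils and monocytes). Of 1242 alternative values of named genes, 1062 kept direction and call, 166 lost the call and 14 changed sign. In cells of 6000 to 12000 UMIs the hemisphere difference changed sign for Sdhc (-0.14), Ndufa4 (-0.0292), Cox6a2 (-0.0419) and Uqcr10 (-0.0144). By library total without TMM, neutrophils against microglia changed sign for Cox5b (-0.17), Atp5f1 (-0.44), Uqcrh (-0.19), Sdhd (-0.50), Cox7a2 (-0.32), Uqcr10 (-0.35) and Cox7a2l (-0.50), and monocytes against microglia for Sdhc (-0.21), Ndufa4 (-0.0315) and Sdha (-0.29). The causes were not tested, except that leaving out a library or cells also lowers the number of samples or molecules. The cells by depth and by monocyte markers were chosen after the data were seen. The interaction of hemisphere and genotype label could not be fitted at 48 h alone. For counts without 1 library the share over all genes is not given. The labels give no replicate numbers. With the 4 combinations of genotype label and time as a block, pairing the hemispheres, the hemisphere count was 57 in microglia and 0 in monocytes and neutrophils. Depth limits the scarce isoforms and the contralateral neutrophils and monocytes, with as few as 45 and 92 cells.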
